A study of Arabidopsis thaliana with 18 samples.

Results

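The genes described here were 101 of 28278 genes counted in Arabidopsis seedlings. They stood higher in mock-treated aff1 mutants than in mock-treated wild type. By the ratio given below, they changed little when wild type was given the auxin indole-3-acetic acid (IAA). They were chosen by their values in the mock-treated samples and in the IAA-treated wild type. Counts were given as CPM (counts per 1000000 counts of the library), and the log2 ratio of group mean CPM, each raised by 0.5, had to be at least 0.8 for aff1-1 over wild type and for aff1-3 over wild type with mock. All 6 mock-treated mutant samples had to lie above all 3 mock-treated wild-type samples. The mean over the 18 samples had to be at least 1 CPM, and the log2 ratio of IAA-treated over mock-treated wild type had to lie within 0.585 of 0. Of 165 genes raised in both alleles by this measure, 54 rose beyond that bound with IAA in wild type, 10 fell beyond it, and 101 stayed inside it. In the edgeR fit used below, the log2 change with IAA in wild type ran from -1.26 to 1.29 over the 101. Some of them thus kept within the bound only in the ratio with 0.5 CPM added.

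Whole seedlings of 3 genotypes in the Columbia (Col-0) background were grown for 4 d and then held for 2 h in liquid medium with either ethanol (mock) or IAA, giving 6 groups of 3 samples. Wild type (Wt) was Col-0. The line aff1-1 carries a point mutation induced by ethyl methanesulfonate in AFF1 (AT3G49150), an F-box protein of the ubiquitin ligases that mark auxin response factors for removal by the proteasome. The line aff1-3 carries an insertion in the same gene (Salk_083453), and the sample labels call this line aff1-2. The study's methods and the sample titles give the IAA dose as 10 µM, whereas the protocol in the sample labels reads 10 mM. Each allele was represented by 1 line, each sample pooled whole seedlings, and nothing in the labels says whether the 3 samples of a group came from separate plantings, so p-values measure the spread between these samples.

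Auxin is perceived through degradation of Aux/IAA repressors, which frees auxin response factors to activate their targets. Many of the genes below belong instead to other stress pathways. Jasmonates are lipid-derived hormones of wounding and defence, and their active form is made by a chloroplast and peroxisome pathway and removed again by oxidases and conjugating enzymes that jasmonate itself induces. Small heat shock proteins and their HSP70 and HSP90 partners hold and refold unfolded proteins, and dehydrins and related proteins build up in cold or dry cells, where members of the CBF family bind a short element in their promoters.

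Library totals ran from 12610301 to 36102396 counts, with 3 samples per group. Counts at AFF1 itself were 1 to 9 in Wt, 0 to 3 in aff1-1 and 46 to 144 in aff1-3, so read counts at this locus are no measure of whether a working protein is made in either line. Marker genes of leaf photosynthesis summed to 90982 to 105776 CPM over all samples, and no marker of leaf, root, vasculature or epidermis was at 0 CPM in any group. Root markers summed to 523 to 583 CPM in Wt after IAA, 383 to 499 CPM in aff1-1, without overlap, and 522 to 600.0 CPM in aff1-3. After IAA, 0 of 9 were called lower in aff1-1 and 1 in aff1-3. With mock, 1 of 9 was called lower in aff1-1 and 3 in aff1-3. Root hair markers were lower in the mutants, with a summed level of 311 to 375 CPM in Wt after IAA against 207 to 225 in aff1-1 and 214 to 228 in aff1-3, and 4 of 8 were called lower in each allele. Seed storage transcripts summed to 7.77 to 210.2 CPM and varied within groups. The part of any of these in the results below was not tested. In whole seedlings, fewer cells of a type and less RNA per cell cannot be told apart.

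With mock, the chosen genes stood 1.75- to 6.95-fold above Wt in aff1-1 (median 2.22-fold) and 1.78- to 11.2-fold above Wt in aff1-3 (median 2.54-fold). These ratios were selected on and carry no test. Together the 101 genes took 0.266% to 0.313% of the counts of mock-treated Wt libraries, 0.547% to 0.75% in aff1-1 and 0.68% to 0.773% in aff1-3. The second aff1-1 mock sample held the lowest of the 6 mutant values for 57 of the 101 genes. It was thus the weakest of the mutant samples for this gene set, while still above all Wt samples by the rule.

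**Figure D1:**
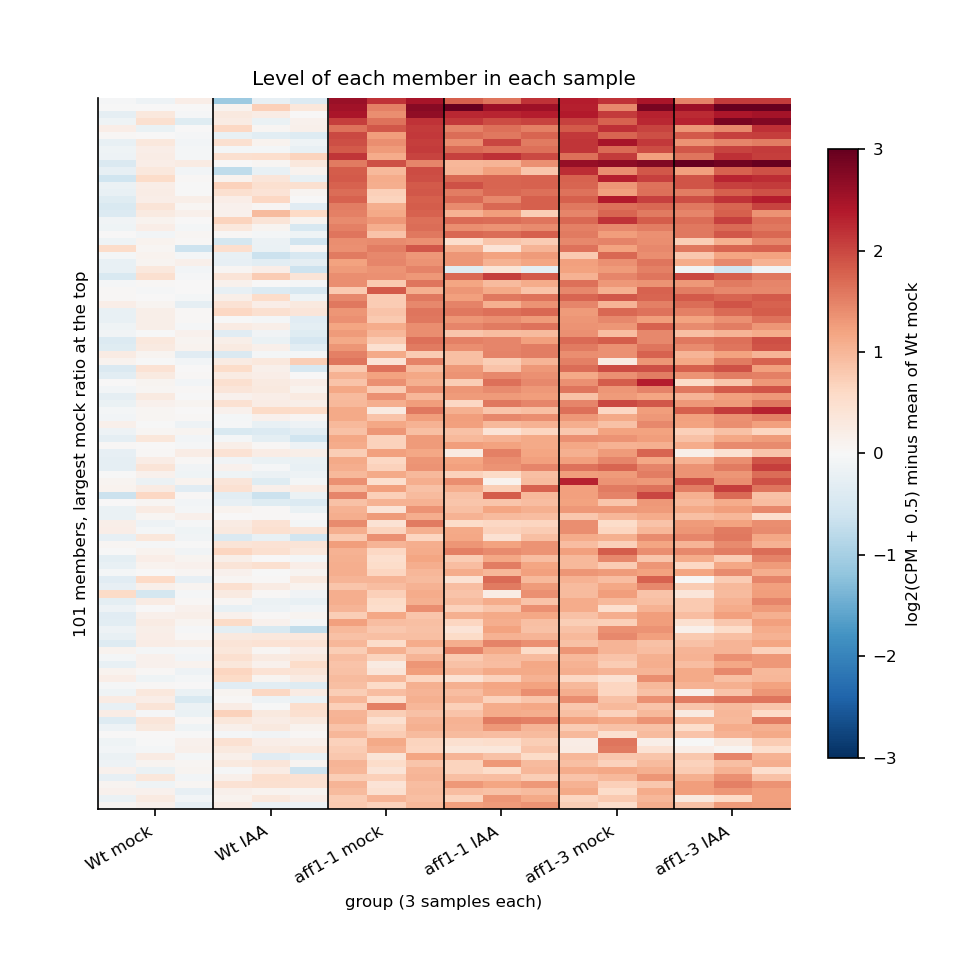
Heat map of the 101 genes (rows) in the 18 samples (columns), coloured by log2 level relative to the mean of mock-treated Wt. The mutant columns are raised with mock, by choice of the genes, and also with IAA, where all but 1 gene had a fitted log2 difference from Wt above 0 in aff1-3 and all 101 did in aff1-1.

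The IAA-treated mutant samples entered the choice only through the mean over all samples, so they show whether the difference from Wt was also present in separately treated seedlings. After IAA, 82 of the 101 genes were called higher in aff1-1 than in Wt (81.2%, edgeR quasi-likelihood test, Benjamini-Hochberg adjusted p below 0.01), where 4.46% of the 19383 genes tested were called higher. In aff1-3, 82 of the 101 were called higher, against 3.39% of all genes tested. None was called lower in either allele by edgeR, DESeq2 or limma, where 1.71% and 1.33% of all genes were called lower by edgeR. By edgeR none was lower at an unadjusted p below 0.05, a limit for which no share of all genes was computed. The IAA-treated Wt samples that serve as the control for both alleles had been held close to mock-treated Wt by the bound, and this limits how far these counts are independent of the rule.

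The genes called higher in both alleles numbered 76 (75.2%), against 2.51% of all genes tested. In 86 of the 101 genes (85.1%) all 6 IAA-treated mutant samples lay above all 3 IAA-treated Wt samples, against 7.85% of all genes tested. The fitted log2 difference from Wt after IAA had a median of 1.22 over the 101 genes in aff1-1 (range 0.02 to 3.12) and 1.39 in aff1-3 (range -0.38 to 3.90), while the median over all genes tested was -0.01 in both. The summed share of counts was 0.271% to 0.31% in IAA-treated Wt, 0.691% to 0.72% in aff1-1 and 0.707% to 0.824% in aff1-3. All IAA-treated mutant libraries were thus above all IAA-treated Wt libraries in this sum. With mock, the rule itself fixed this order.

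**Figure D2:**
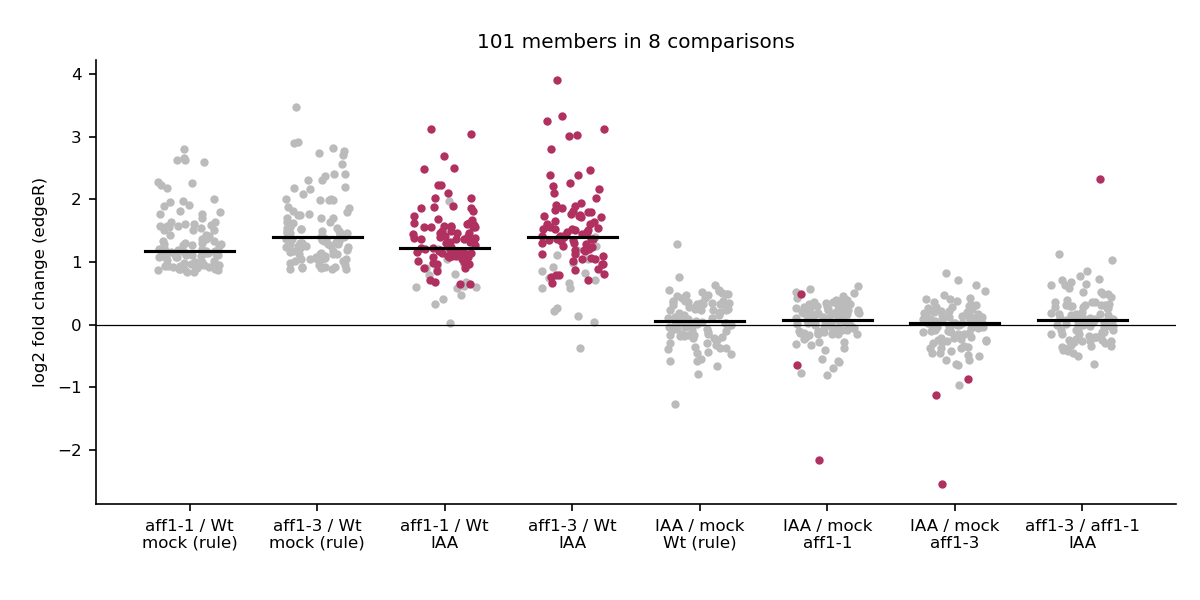
Fitted log2 fold changes of the 101 genes in 8 comparisons, 1 point per gene, with the median as a black line and genes at an adjusted p below 0.01 in purple. The columns marked as used by the rule carry no test. The medians sit at 1.22 and 1.39 for the alleles against Wt after IAA and near 0 for the IAA responses and for aff1-3 against aff1-1.

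Genes of the jasmonate pathway made up 11 of the 101. This count rests mostly on lists drawn up after the 101 genes were seen, and the shorter list described below held 4 of them. AOC2 and AOC1, which encode allene oxide cyclases of jasmonate synthesis, lie beside each other on chromosome 3 with 1330 bases between them (AOC1 at chr3:9403779-9405338 and AOC2 at chr3:9406669-9408071, both on the plus strand, TAIR10.1 assembly). AOC2 had the highest mean CPM of the 101 genes. Its level was 155, 194 and 162 CPM in mock-treated Wt and 164, 162 and 145 CPM in IAA-treated Wt. It was 613, 414 and 729 CPM with mock and 554, 523 and 536 CPM with IAA in aff1-1, and 753, 549 and 656 CPM with mock and 617, 690.3 and 729.6 CPM with IAA in aff1-3. Every mutant sample thus exceeded every Wt sample by a wide margin, though with mock the rule had required this order. The second mock sample was the lowest in each allele. After IAA the log2 fold change over Wt was 1.86 ± 0.15 (SE, n = 3 per group, edgeR adjusted p = 1.16e-07) in aff1-1 and 2.16 ± 0.16 (adjusted p = 1.61e-08) in aff1-3.

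AOC1 ran at a lower level with the same pattern, at 21.7, 20.3 and 19.3 CPM in IAA-treated Wt, 82.1, 77.3 and 86.3 CPM in aff1-1 and 92.4, 107 and 109.9 CPM in aff1-3. Of the 50-base words in its exons, 2.2% occur elsewhere in the genome, so few reads could be shared with its neighbour. AOS, the allene oxide synthase that acts just before them, stood at 94.2, 86.5 and 84.0 CPM in Wt, 195, 165 and 185 CPM in aff1-1 and 211, 251 and 238 CPM in aff1-3 after IAA. The groups did not overlap, and the log2 fold changes were 1.13 ± 0.14 (edgeR adjusted p = 1.79e-05) and 1.45 ± 0.14 (adjusted p = 7.18e-07). LOX3, a 13-lipoxygenase at the start of the pathway, was at 3.96, 4.89 and 2.49 CPM in Wt, 6.83, 6.20 and 8.65 CPM in aff1-1 and 7.33, 8.97 and 6.03 CPM in aff1-3, again without overlap.

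The other 9 tested genes of jasmonate synthesis, from a list drawn up after the 101 genes were seen, had smaller differences in most cases. OPR3, the reductase that follows the cyclases, was called higher in both alleles after IAA, with log2 fold changes of 0.63 and 0.78. ACX1, a peroxisomal oxidase of the last steps, was called higher in aff1-3 with 0.50, and its value in aff1-1 was 0.37 (edgeR adjusted p = 0.0229). The paralogue AOC4 had -0.34 (adjusted p = 0.015) in aff1-1 and -0.03 (adjusted p = 0.905) in aff1-3. Over these 9 genes the median was 0.32 in aff1-1 and 0.48 in aff1-3, beside -0.01 for all genes tested.

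Of the genes that remove or modify jasmonates, 5 were among the 101. CYP94C1 and CYP94B3 oxidise the active conjugate jasmonoyl-isoleucine, AT2G38240 and JRG21 (AT3G55970) encode oxygenases that hydroxylate jasmonic acid, and ST2A is a sulfotransferase of hydroxyjasmonate. AT2G38240 stood at 56.4, 53.2 and 45.9 CPM in Wt after IAA, at 223, 224 and 237 CPM in aff1-1 and at 219, 246 and 259 CPM in aff1-3. These groups were far apart, with log2 fold changes of 2.22 ± 0.22 (edgeR adjusted p = 8.04e-07) and 2.27 ± 0.22 (adjusted p = 4.3e-07).

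JRG21 followed at 90.3, 85.7 and 68.4 CPM in Wt, 189, 216 and 206 CPM in aff1-1 and 190.3, 225 and 247 CPM in aff1-3 after IAA. ST2A stood at 48.3, 41.7 and 41.7 CPM in Wt, 113, 102 and 103 CPM in aff1-1 and 111, 126 and 130.3 CPM in aff1-3. Neither gene had a mutant sample at or below the highest Wt sample. CYP94B3 was closer to Wt, at 72.4, 76.7 and 63.0 CPM in Wt, 105, 160.1 and 127 CPM in aff1-1 and 85.5, 124 and 134 CPM in aff1-3, and was called in aff1-1 alone (adjusted p = 0.011 in aff1-3). Of the 5 other tested genes on this list, also drawn up afterwards, 4 were called higher in both alleles: CYP94B1, AT5G05600, IAR3 and ILL6, with log2 fold changes from 0.66 to 2.07.

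Fewer genes of jasmonate perception and signalling were called. JAZ8, a repressor of jasmonate signalling, was the only gene of this function among the 101. It was at 2.07, 2.01 and 2.53 CPM in Wt, 2.88, 7.50 and 4.31 CPM in aff1-1 and 2.05, 3.68 and 6.34 CPM in aff1-3 after IAA, with overlap between aff1-3 and Wt, and it was called in neither allele (edgeR adjusted p = 0.0346 and 0.206). The receptor gene COI1 had log2 differences of 0.04 and -0.02, and MYC2, which encodes the main activator of the pathway, had 0.24 and 0.03, neither called. The signalling list was also drawn up after the 101 genes were seen. Among its 16 tested genes outside the 101, 3 were called higher in each allele, with JAZ10 and TIFY7 in both. Their median was 0.24 in aff1-1 and 0.18 in aff1-3. TAT3, a tyrosine aminotransferase widely used as a wound and jasmonate marker, was at 3.02, 4.86 and 3.64 CPM in Wt, 26.1, 18.6 and 18.4 CPM in aff1-1 and 18.8, 35.4 and 25.5 CPM in aff1-3. Its log2 fold changes of 2.51 ± 0.33 (edgeR adjusted p = 3.19e-05) and 2.80 ± 0.33 (adjusted p = 7.59e-06) were among the largest of the set. Of 5 other tested response genes, only ORA59, an activator of defensin genes, was called higher, in both alleles, and 0 were called lower. The median over these 5 genes was -0.04 in aff1-1 and -0.58 in aff1-3. The list of response genes was drawn up afterwards too.

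On the shorter jasmonate list, which like the others was chosen with earlier results known, 4 of 17 tested genes were among the 101. Of the other 13, 3 were called higher in each allele after IAA, 2 of them in both, and none was called lower.

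**Figure D3:**
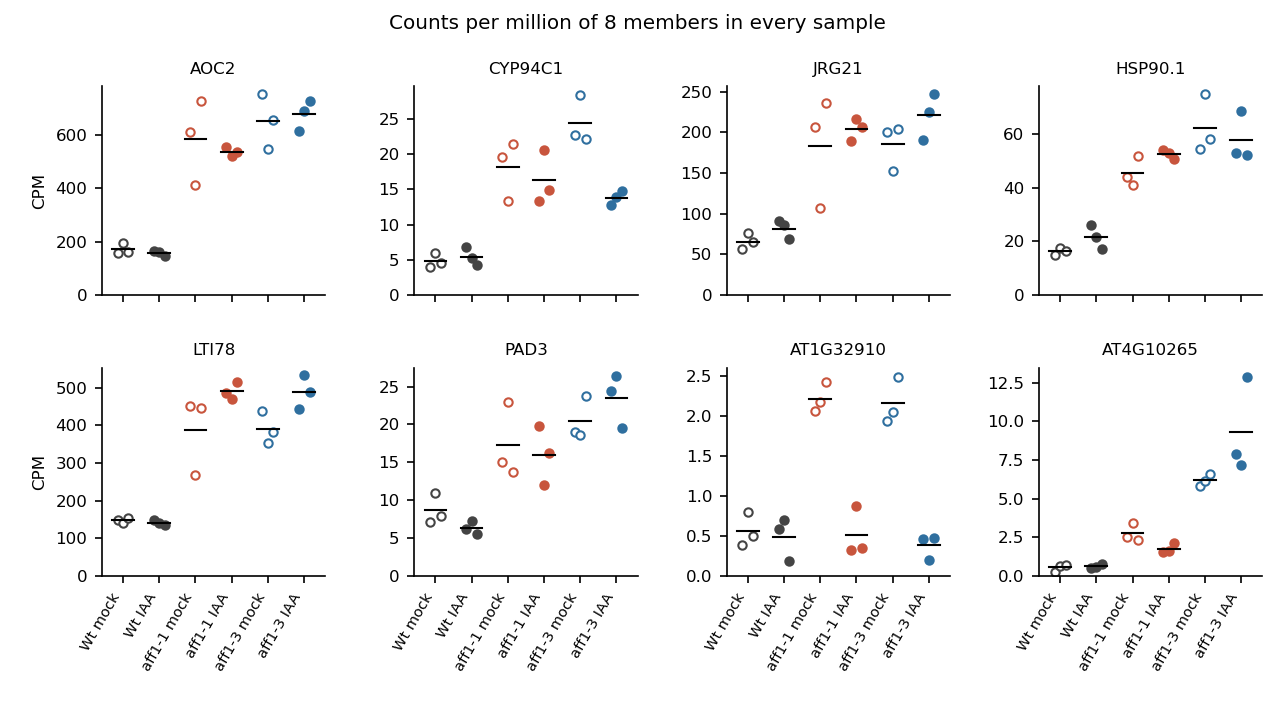
CPM of 8 of the genes in each sample, with open circles for mock, filled circles for IAA and a line at each group mean. AOC2, JRG21 and LTI78 stay high in both alleles with either treatment, AT1G32910 returns to the Wt range after IAA, and AT4G10265 is higher in aff1-3 than in aff1-1.

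Molecular chaperones of the heat response made up 8 of the 101 genes, by a wider chaperone list drawn up after the genes were seen. The heat shock list was not drawn up afterwards, but was chosen with earlier results of these data known. It held 4 of the 101 among its 11 tested genes. The cytosolic small heat shock genes HSP17.6II and HSP17.6A are neighbours on chromosome 5 with 845 bases between them. HSP17.6II was at 3.31, 4.03 and 2.53 CPM in Wt, 11.2, 11.4 and 11.6 CPM in aff1-1 and 12.5, 16.7 and 15.9 CPM in aff1-3 after IAA. HSP17.6A was at 1.89, 2.75 and 1.57 CPM in Wt, 6.34, 5.22 and 6.82 CPM in aff1-1 and 7.55, 8.97 and 10.2 CPM in aff1-3. Both were clear of the Wt range, with log2 fold changes between 1.62 and 2.21, all called. AT1G07400 and AT5G51440, also of the HSP20 family, were called higher in both alleles with log2 fold changes of 1.10 to 1.79.

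HSP90.1, a stress-induced cytosolic HSP90, stood at 25.9, 21.5 and 17.1 CPM in Wt, 54.3, 53.0 and 50.8 CPM in aff1-1 and 52.9, 68.8 and 52.2 CPM in aff1-3. Its log2 fold changes were 1.38 ± 0.15 (edgeR adjusted p = 3.44e-06) and 1.48 ± 0.15 (adjusted p = 1.26e-06). Hsp70-2, an HSP70, stood at 28.0, 25.5 and 27.1 CPM in Wt, 56.4, 52.1 and 61.6 CPM in aff1-1 and 59.0, 69.8 and 55.6 CPM in aff1-3. For both genes every mutant sample lay above every Wt sample.

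The remaining chaperones were not called in both alleles. ATERDJ3A, a J-domain protein of the endoplasmic reticulum, had log2 differences of 0.81 and 0.91 (edgeR adjusted p = 0.0189 and 0.0124). HSP23.6-MITO, a mitochondrial small heat shock protein near the detection limit, was at 0.296, 0.895 and 0.599 CPM in Wt and 0.708 to 2.02 CPM in the mutants after IAA, where the groups overlapped. Its fitted log2 change with IAA in Wt was 1.29, while the ratio with 0.5 CPM added that the rule used was 0.56 and so passed the bound. Of 7 tested genes outside the 101 on the heat shock list, 3 were called higher in aff1-1 and 4 in aff1-3, with medians of 0.70 and 1.26. On the wider chaperone list drawn up after the genes were seen, it was 4 and 5 of 14. No gene of the unfolded protein response list was among the 101, and none of its 9 tested genes was called in either allele after IAA.

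Cold and dehydration genes formed a further group of abundant transcripts. LTI78 (RD29A), a classical reporter of cold, drought and abscisic acid, was at 149.9, 141 and 135 CPM in Wt after IAA, 485, 470.3 and 514 CPM in aff1-1 and 443, 533 and 489 CPM in aff1-3. LTI30, a dehydrin, was at 154, 157 and 149 CPM in Wt, 412, 444 and 455 CPM in aff1-1 and 405, 412 and 453 CPM in aff1-3. ERD7, a dehydration- and senescence-associated gene, was at 92.4, 105 and 100.3 CPM in Wt, 227, 262 and 251 CPM in aff1-1 and 223, 247 and 275 CPM in aff1-3. The spread within each group was small beside the gap to Wt, and the 6 edgeR adjusted p-values of these genes ran from 1.54e-08 to 4.06e-08, with log2 fold changes of 1.37 to 1.88. HVA22E, which encodes a membrane protein induced by abscisic acid and stress, was at 9.71 to 11.3 CPM in Wt, 14.1 to 16.0 CPM in aff1-1 and 17.0 to 21.6 CPM in aff1-3, also called in both.

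Of the 9 other tested genes on a cold list drawn up after the genes were seen, COR47, ERD10 and KIN2 were called higher in both alleles, with log2 fold changes of 0.56 to 1.19. The activators CBF1, CBF2 and DREB1A (CBF3) were called in neither. On the abscisic acid and drought list, 1 of 14 tested genes was among the 101, and 5 of the other 13 were called higher in aff1-1 and 4 in aff1-3. NAC3 (ANAC055), a NAC factor of abscisic acid and jasmonate responses, was at 6.84 to 9.11 CPM in Wt and 14.8 to 20.7 CPM in the mutants after IAA, without overlap.

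The element bound by CBF factors has the core CCGAC. Windows of 300 bases before the annotated start of each gene were read from the RefSeq TAIR10.1 assembly for 99 of the 101 genes, on both strands. At least 1 CCGAC was found in 15.2% of the 99 windows and in 15.0% of the 19271 windows of all tested genes. At least 3 copies were found in 3 of the 99 windows (3.03%), against 0.306% of all windows. Those 3 genes were LTI78, LTI30 and HVA22E, which is why their windows are shown, each 5′ to 3′ on the strand of the gene with CCGAC, or its reverse complement, in capitals. The LTI78 window is chr5:21240417-21240716 on the plus strand, the LTI30 window is chr3:18940429-18940642 on the plus strand, cut to 214 bases where a neighbouring exon begins, and the HVA22E window is chr5:20634619-20634918 on the minus strand. A match describes the sequence and does not show a bound site.
LTI78: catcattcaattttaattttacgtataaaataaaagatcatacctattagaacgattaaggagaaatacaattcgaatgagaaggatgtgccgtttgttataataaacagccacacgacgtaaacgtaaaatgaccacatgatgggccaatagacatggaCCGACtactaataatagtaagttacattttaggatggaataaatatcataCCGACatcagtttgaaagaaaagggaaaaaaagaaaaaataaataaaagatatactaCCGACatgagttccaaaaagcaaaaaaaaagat
LTI30: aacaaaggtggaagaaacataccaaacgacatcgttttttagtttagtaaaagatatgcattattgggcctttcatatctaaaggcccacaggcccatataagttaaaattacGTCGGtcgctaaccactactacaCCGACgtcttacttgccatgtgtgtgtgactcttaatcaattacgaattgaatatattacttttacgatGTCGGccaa
HVA22E: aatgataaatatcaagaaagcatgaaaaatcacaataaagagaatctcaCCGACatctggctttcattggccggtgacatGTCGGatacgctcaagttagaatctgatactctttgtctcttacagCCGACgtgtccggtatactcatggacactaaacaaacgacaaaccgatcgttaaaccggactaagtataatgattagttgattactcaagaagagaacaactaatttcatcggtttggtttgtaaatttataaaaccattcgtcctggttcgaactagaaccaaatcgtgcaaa

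The core ACGTG, found in elements of abscisic acid responsive promoters, was in 49.5% of the 99 windows and in 26.6% of all windows. It lies within the G-box CACGTG on both strands, which was in 14.1% and 8.04%. LOX3 held 3 copies of ACGTG, and its window (chr1:5977023-5977322, plus strand) is shown as 1 of the jasmonate genes with the most copies, AOS being the other, with ACGTG or its reverse complement in capitals. Among the other searches, the G-box variant CACATG was in 20.2% against 13.1%, TTGAC, the core of the W-box of WRKY factors, in 61.6% against 50.4%, and TGACG, the core of TGA factor sites, in 28.3% against 22.0%. The heat shock element cores GAANNTTC and TTCNNGAA were in 18.2% against 11.2% and 11.1% against 9.19%, and TTCNNGAA was in 4 of the 8 chaperone windows. The auxin response elements TGTCTC and TGTCGG were in 18.2% against 12.7% and 7.07% against 5.43%. At least 3 copies of TTGAC were in 14.1% of the 99 windows, against 5.03% of all windows. For ACGTG, where a G-box counts on each strand, it was 7.07% against 3.97%, and for TGACG 2.02% against 0.846%. A raised share with 3 copies was thus not particular to CCGAC. No test was made on these shares.
LOX3: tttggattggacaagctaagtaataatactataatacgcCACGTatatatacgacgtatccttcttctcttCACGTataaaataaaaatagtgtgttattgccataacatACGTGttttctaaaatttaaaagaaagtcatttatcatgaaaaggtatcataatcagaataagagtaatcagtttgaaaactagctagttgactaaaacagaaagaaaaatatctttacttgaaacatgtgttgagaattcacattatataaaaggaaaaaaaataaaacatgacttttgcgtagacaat

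**Figure D4:**
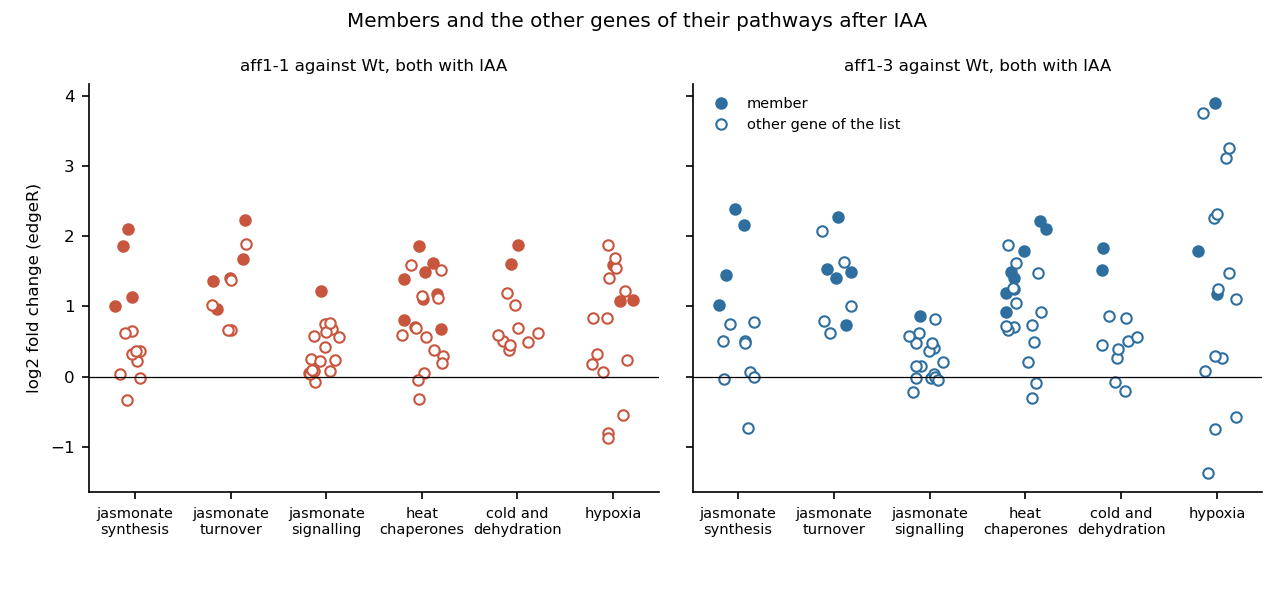
Fitted log2 fold changes over Wt after IAA (vertical) in a left panel for aff1-1 and a right panel for aff1-3. Genes are grouped along the horizontal axis by list: jasmonate synthesis, turnover and signalling, heat chaperones, cold and dehydration, and hypoxia. The 101 chosen genes are filled and the other list genes open. Both panels share the IAA-treated Wt samples. Most filled points lie above 0 in both panels, and several open points, such as COR47 and AT5G05600, do so too.

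Defence metabolism was represented by PAD3, the cytochrome P450 of the last step of camalexin synthesis, by GSTF6, a glutathione transferase that acts in the same pathway, and by AT1G26380, an oxidase of indole cyanogenic defence compounds. PAD3 was at 6.15, 7.29 and 5.58 CPM in Wt, 19.8, 12.0 and 16.3 CPM in aff1-1 and 24.5, 26.5 and 19.6 CPM in aff1-3 after IAA. The groups did not overlap, and the log2 fold changes were 1.42 ± 0.21 (edgeR adjusted p = 0.000134) and 1.93 ± 0.22 (adjusted p = 3.28e-06). GSTF6 was at 237, 228 and 199.7 CPM in Wt, 506, 542 and 516 CPM in aff1-1 and 509.5, 577 and 565 CPM in aff1-3. Its neighbour GSTF7, 1107 bases away on chromosome 1, followed at 79.2 to 85.0 CPM in Wt, 163 to 175 CPM in aff1-1 and 147 to 182 CPM in aff1-3. About 10% of the 50-base words of each occur elsewhere in the genome (10.3% and 10.0%), so a part of their reads may be lost or shared.

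CYP79B2 and CYP79B3, which open the indole branch that feeds both camalexin and indole glucosinolates, were called lower in both alleles, with log2 fold changes of -0.54 and -0.57 for CYP79B2 and -0.39 and -0.54 for CYP79B3. Of 6 tested genes outside the 101 on this list, drawn up afterwards, 2 were called higher and 2 lower in each allele. IGMT2, a methyltransferase of indole glucosinolates, was at 17.6 to 19.8 CPM in Wt, 42.1 to 45.2 CPM in aff1-1 and 45.0 to 51.6 CPM in aff1-3, but 36.7% of its 50-base words occur elsewhere. None of the 5 tested genes of the salicylate defence list was among the 101, and 1 of them was called higher in aff1-1 and none in aff1-3. EP3, a chitinase, PGIP2, an inhibitor of fungal pectin-degrading enzymes, TI2, a trypsin inhibitor, and PSK5, a precursor of the peptide hormone phytosulfokine, were all called higher in both alleles, with log2 fold changes of 0.91 to 1.72. EP3 overlaps genes on the opposite strand, as did 15 of the 99 annotated genes, and strand was not stated for the counting.

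Several of the most abundant genes serve redox balance. BCB, a blue copper-binding protein of the cell surface, was at 197, 188 and 136 CPM in Wt, 457, 489 and 517 CPM in aff1-1 and 443, 486 and 418 CPM in aff1-3 after IAA. MSRB9, a methionine sulfoxide reductase, was at 196, 173 and 167 CPM in Wt, 388, 312 and 343 CPM in aff1-1 and 555, 583 and 586 CPM in aff1-3, so that it stood higher in aff1-3 than in aff1-1 without overlap. That difference had a log2 value of 0.69 ± 0.16 (edgeR adjusted p = 0.0554) and was not called. MDHAR, which restores ascorbate, had log2 fold changes over Wt of 1.10 ± 0.16 and 1.53 ± 0.17, both called. Per kilobase of exon, AOC2 had the highest mean level over the 18 samples (357 CPM per kb), followed by GSTF6 (343), LTI30 (331) and MSRB9 (323).

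Of the glutathione transferases, 2 of 11 tested GSTF genes were among the 101, and of the other 9, 2 were called higher in aff1-1 and 3 in aff1-3. No gene with a GSTU symbol was among them, although ERD9, under this symbol in the table, belongs to that class and was called higher in both alleles (log2 fold changes of 1.17 and 1.35). Of 25 tested GSTU genes, 5 were called higher in aff1-1 and 7 in aff1-3. Of 48 glycosyltransferases with a UGT symbol, none of them among the 101, 12 and 16 were called higher and 1 was called lower in each allele. Of 147 cytochrome P450 genes with a CYP symbol, 2 were among the 101, and of the other 145, 15 and 11 were called higher and 3 and 8 lower.

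The hypoxia list held 3 of the 101 genes and also the clearest difference between the alleles. AT4G10265, annotated as a wound-responsive family protein (chr4:6373008-6373667, minus strand, 1 exon), was at 0.262, 0.673 and 0.72 CPM in mock-treated Wt and 0.532, 0.575 and 0.783 CPM in IAA-treated Wt. It was at 2.55, 3.45 and 2.32 CPM with mock and 1.57, 1.60 and 2.15 CPM with IAA in aff1-1. In aff1-3 it was at 5.85, 6.15 and 6.57 CPM with mock and 7.89, 7.15 and 12.8 CPM with IAA. All aff1-3 samples thus lay above all aff1-1 samples, which lay above all Wt samples. With mock, the rule had required both mutants to lie above Wt. After IAA, aff1-3 exceeded aff1-1 by 2.32 ± 0.26 on the log2 scale (edgeR adjusted p = 3.5e-05), a comparison of samples that the rule used only through the overall mean.

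It was the only gene of the 101 genes called between the alleles after IAA by edgeR, where 0.181% of all genes tested were called. DESeq2 called 3 of them and limma 1, and at an unadjusted p below 0.05 edgeR gave 16 higher in aff1-3 and 3 lower. No share of all genes was computed at that unadjusted limit or for the other tools. Neither the split nor these counts are therefore read as a trait of these genes. AT5G39890, a cysteine oxidase that acts in oxygen sensing, was at 3.48 to 3.61 CPM in Wt, 6.26 to 7.98 CPM in aff1-1 and 10.9 to 13.9 CPM in aff1-3 after IAA, with a difference between the alleles of 0.72 ± 0.14 (edgeR adjusted p = 0.0246). AT4G24110, also on the hypoxia list, was at 15.3 to 18.6 CPM in Wt, 20.8 to 41.0 CPM in aff1-1 and 33.1 to 41.2 CPM in aff1-3, and was called higher than Wt in both. Of 14 tested genes outside the 101 on this list, 6 were called higher in aff1-1 and 8 in aff1-3, 6 in both, and 1, the alcohol dehydrogenase gene ADH1, was called lower in each.

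Transporters among the 101 included NRT1.8 and NRT1.7, which move nitrate out of the xylem and into the phloem. NRT1.8 was at 43.3, 44.1 and 43.2 CPM in Wt, 82.1, 75.8 and 84.5 CPM in aff1-1 and 66.4, 88.0 and 67.6 CPM in aff1-3 after IAA, with no overlap. FUR1, a nucleoside transporter, was at 13.0 to 15.4 CPM in Wt, 30.2 to 32.6 CPM in aff1-1 and 36.8 to 45.6 CPM in aff1-3. AT3G63380, a calcium ATPase, was at 6.21 to 7.10 CPM in Wt, 18.5 to 21.6 CPM in aff1-1 and 14.2 to 21.4 CPM in aff1-3. RNS1, a secreted ribonuclease and the only gene of the phosphate starvation list among the 101, was at 115, 105 and 75.8 CPM in Wt, 249, 262 and 275 CPM in aff1-1 and 253, 288 and 354 CPM in aff1-3. Each of these genes was called higher in both alleles, while none of the 8 other tested genes of the phosphate list was called in either.

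Regulators among the 101 included transcription factors of several families. AT4G18650, annotated as a transcription factor-like protein, had the largest smaller mock ratio of the set. It was at 0.355, 1.02 and 0.876 CPM in Wt, 5.77, 5.07 and 7.62 CPM in aff1-1 and 4.60, 7.31 and 7.30 CPM in aff1-3 after IAA, with log2 fold changes of 3.04 ± 0.28 (edgeR adjusted p = 4.41e-07) and 3.03 ± 0.28 (adjusted p = 3.21e-07). FAMT, a farnesoic acid methyltransferase, was of similar size at 0.511 to 0.887 CPM in Wt, 4.03 to 4.59 CPM in aff1-1 and 5.33 to 7.86 CPM in aff1-3. The bHLH gene AT4G20970 stood at 8.48 to 11.9 CPM in Wt and 29.8 to 45.4 CPM in the mutants. ERF2, an activator of ethylene and jasmonate responses and the only ethylene list gene among the 101, was at 14.7 to 14.9 CPM in Wt and 18.0 to 24.9 CPM in the mutants, a smaller rise that was still called in both (log2 fold changes of 0.69 and 0.67). Of the 7 other tested genes of that list, 1 was called higher in each allele.

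The response of the 101 genes to IAA within each mutant set samples that the rule did not use beside the mock-treated mutant samples, which the rule had selected to be high. That choice favours falls with IAA, most of all in genes near 1 CPM, so falls are given as descriptions with no p. In aff1-1, edgeR called 1 gene higher with IAA and 2 lower, where 3.16% of all genes tested were called higher and 1.71% lower. In aff1-3 it called 0 higher and 3 lower, where 2.98% of all genes were called higher and 1.97% lower. The shares called lower, 1.98% and 2.97% of the 101, were thus near those of all genes. At an unadjusted p below 0.05, 14 were higher and 8 lower in aff1-1, and 9 were higher and 12 lower in aff1-3. No share of all genes was computed at this unadjusted limit, so nothing is read from these counts. In aff1-3, limma called 0 higher and DESeq2 1, again without a computed share of all genes.

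NRT1.7 was the gene called higher in aff1-1. It went from 89.3, 58.8 and 84.3 CPM with mock to 109, 102 and 109.5 CPM with IAA, a log2 fold change of 0.49 ± 0.12 (edgeR adjusted p = 0.00759). In aff1-3 it went from 91.5, 72.7 and 77.7 CPM to 105, 126 and 113 CPM, a nearly equal change of 0.47 ± 0.12 that just missed the threshold (adjusted p = 0.0104). It passed there with the replicate block (edgeR adjusted p = 0.0068), with no filter (0.00619), without organelle genes (0.00893), without the first mock-treated aff1-3 sample (0.00748) and with DESeq2 (0.00234). The fitted change in Wt was 0.43, and no interaction was called for this gene. The counts of calls rest on few libraries. Without the first or the third IAA-treated aff1-1 sample 1 call was left in aff1-1. Without the first or second IAA-treated aff1-3 sample or the second mock-treated one 1 call was left in aff1-3, while 5 were made without the first mock-treated aff1-3 sample.

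Among the genes that fell, AT1G32910, an acyltransferase-like gene near the detection limit, had the lowest log2 value. It went from 2.06, 2.17 and 2.43 CPM to 0.32, 0.879 and 0.354 CPM in aff1-1, a log2 fold change of -2.16 ± 0.40. In aff1-3 it went from 1.94, 2.05 and 2.49 CPM to 0.469, 0.202 and 0.476 CPM, a log2 fold change of -2.54 ± 0.43. With IAA it thus lay within the range of IAA-treated Wt, 0.184 to 0.703 CPM, or just beside it. AT1G19530 went from 101, 102 and 99.2 CPM to 55.1, 67.9 and 65.5 CPM in aff1-1, a log2 fold change of -0.65 ± 0.14, beside a fitted change of -0.45 in Wt.

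The other genes called lower in aff1-3 were CYP94C1 and the zinc finger gene AT3G46080. CYP94C1 went from 22.7, 28.4 and 22.2 CPM to 12.8, 13.9 and 14.7 CPM (log2 fold change -0.86 ± 0.19) and stayed above Wt in every IAA-treated mutant sample. AT3G46080 went from 6.78, 9.40 and 13.7 CPM to 3.62, 4.43 and 6.34 CPM (-1.13 ± 0.26). ZAT7, a zinc finger gene close to AT3G46080 on chromosome 3 with 1 gene between them, had a log2 change of -0.96 ± 0.24 in aff1-3, which passed the threshold with the replicate block, with no filter and without the first mock-treated aff1-3 sample, but not in the fit reported here.

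No gene of the 101 was called by edgeR for an interaction, that is, for an IAA response in a mutant different from that in Wt, where 0.0722% of all genes were called in aff1-1 and 0.0877% in aff1-3. In aff1-1, 7 had an unadjusted p below 0.05, and DESeq2 and limma called 1 each. In aff1-3, 15 had an unadjusted p below 0.05, and neither of the other tools called any. The counts of 7 and 15 and those of the other tools stand without shares of all genes, which were not computed. The smallest edgeR adjusted p in aff1-1 was that of LTI30 (0.0371), which went from 189.6, 202 and 196 CPM to 154, 157 and 149 CPM in Wt and from 367, 293 and 408 CPM to 412, 444 and 455 CPM in aff1-1. All samples but the IAA-treated mutants were used by the rule, so these counts are descriptive.

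Of the 25 genes not called in both alleles after IAA, 13 were called in neither allele, 6 in aff1-1 alone and 6 in aff1-3 alone. GAT1_2.1, a glutamine amidotransferase-like gene, was at 5.80 to 8.05 CPM in Wt, 9.62 to 11.5 CPM in aff1-1 and 19.3 to 27.8 CPM in aff1-3, and was called in aff1-3 alone. The difference between its alleles was 1.13 ± 0.25 (edgeR adjusted p = 0.0431) and was not called. BCAT-2, a transaminase of branched-chain amino acids, was at 1.77 to 2.72 CPM in Wt, 2.69 to 3.41 CPM in aff1-1 and 3.75 to 6.03 CPM in aff1-3 and was called in neither. WRKY75 and SAG13, both linked to senescence, were at 1.60 to 2.56 and 0.575 to 1.06 CPM in Wt, with log2 differences of 0.58 to 1.18 in the mutants and no call.

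The plastid-encoded genes ATCG00180 and ATCG00190 owed their place to the second aff1-3 mock library as well. With mock, ATCG00180 was at 43.0, 43.7 and 50.8 CPM in Wt, 77.9, 94.9 and 71.8 CPM in aff1-1 and 54.3, 135 and 61.5 CPM in aff1-3. In that library, genes of plastid and mitochondrion took 4.93% of the counts, against 2.31% and 2.51% in the other aff1-3 mock libraries, 3.33% to 3.54% in aff1-1 and 1.96% to 2.28% in Wt. Without it the log2 mock ratio of aff1-3 over Wt was 0.33 for ATCG00180 in place of 0.86 and 0.20 for ATCG00190 in place of 0.83, under the limit of 0.8. After IAA, ATCG00180 stood at 48.1 to 81.3 CPM in the mutants beside 55.0 to 56.7 CPM in Wt, with overlap, and neither gene was called in either allele.

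By the rule's own limits, the genes just inside the mock limit were NAC3 (smaller log2 ratio 0.80), AT1G05340 (0.80) and PGIP2 (0.80), and those just outside were OPR1 (0.80), CRK28 (0.80) and BCE2 (0.80), so that nothing but the limit separates them. On the bound for IAA in Wt, HSP23.6-MITO (0.56), AT4G18650 (-0.55) and AT3G63380 (0.54) were just inside, and AT2G34930 (0.60), AACT1 (-0.61) and HVA22D (0.61) were just outside.

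On the chromosomes, the 99 genes found in the annotation lay at 28 on chromosome 1, 12 on 2, 29 on 3, 11 on 4 and 19 on 5. Chromosome 3, which carries AFF1, held 29.3% of them and 19.8% of all genes tested. Within 1 Mb of AFF1 there were 4 of them, AT3G47380, CYP94B3, LTI30 and AT3G51450 (4.04%, against 2.07% of genes tested). Within 2 Mb there were 8 (8.08%, against 3.9%), and within 5 Mb there were 12 (12.1%, against 7.56%). Both mutants are derived lines. The paper describes backcrossing and genotyping of aff1-1 to remove linked mutations, among them a mutation in RDR6. Sequence differences near AFF1 were not analysed here. Genes without introns made up 27.3% of the 99 and 17.2% of all genes tested, and the median exon length was 1300.0 bases against 1773.5 bases. The median GC content of exons was 40.7% against 41.1%.

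None of the other process lists held any of the 101 genes. After IAA, 2 of 13 genes of mitochondrial retrograde signalling were called higher in aff1-1 and 6 in aff1-3, and none was called lower. No gene of the clock, iron deficiency or proteasome lists (12, 8 and 22 tested) was called in either allele after IAA. With mock, 1 clock gene was called higher in aff1-1 and 1 iron deficiency gene lower in aff1-3. Of 18 early auxin genes, which had a median log2 change of 4.10 with IAA in Wt, none was among the 101. With mock, 4 of them were called higher and 0 lower in aff1-1 and 5 higher and 1 lower in aff1-3, with a median log2 difference of 0.41 in both. After IAA, 2 were called lower in each allele and 0 higher.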

How the data were processed

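RNA-seq counts were analysed for 18 samples in 6 groups of 3, with 12610301 to 36102396 counts per library. The authors deposited a table of raw gene counts, which per the study's methods are single-end reads aligned uniquely with STAR to TAIR10 and counted with featureCounts. The methods name a Ribo-Zero Gold kit and the labels a SMARTer cDNA kit, and whether the counting used strand is not given in the sources used here. All sample columns were used (0 unused).

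Genes with at least 1 CPM in at least 2 samples were tested (19383 of 28278), after leaving out 4 ribosomal RNA genes. R 4.3.3 with edgeR 4.0.16 (TMM factors, quasi-likelihood test, 6 group means over all 18 samples, Benjamini-Hochberg adjustment over all genes tested) was used, and genes at an adjusted p below 0.01 are termed called. Fold changes are log2 with their SE. Intervals and p-values cover the spread between samples only. The procedure was checked on simulated counts. Alternatives were limma 3.58.1 with sample weights, DESeq2 1.42.0, RLE factors, no filter, no organelle genes, only the groups compared, an adjusted p below 0.05, a replicate block, and each sample left out in turn, as well as other limits for choosing the genes.

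The genes and the lists were chosen with earlier results of these data known. Named were the 10 genes with the largest smaller mock ratio, the 5 most abundant, those on a list, the 3 most changed in each direction of each test, those at the limits, neighbouring loci, and up to 4 of each product class. Some of the genes described, such as ERD7, HVA22E, GAT1_2.1, MDHAR, FUR1, NRT1.8, EP3, PGIP2, TI2, PSK5, WRKY75, SAG13, BCAT-2 and the plastid genes, were singled out after their values were seen. Annotation and sequence come from RefSeq TAIR10.1, in which 99 of the 101 genes were found.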

Additional observations from a re-analysis of the deposited data

Results flagged for a closer look

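AT4G10265, the hypoxia list gene that differed between the alleles, moved in opposite directions with IAA in aff1-1 and aff1-3. Its fitted log2 change with IAA was -0.58 in aff1-1, where all 3 IAA-treated samples lay below all 3 mock-treated ones, and 0.53 in aff1-3, where all 3 lay above. Neither change was called by edgeR (adjusted p = 0.261 and 0.198), and the difference between these responses was not tested.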

How the results depend on the processing

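The counts of genes higher than Wt after IAA stayed within 1.5 times of the reported ones under every alternative run, at 82 to 93 in aff1-1 and 82 to 88 in aff1-3, and at 69 to 81 and 72 to 80 with 1 sample left out. No share of all genes tested was computed under the alternatives, so these counts show only how the calls depend on the setting. The smaller counts moved more. Genes changed by IAA in aff1-3 numbered 5 with no filter and 6 at an adjusted p below 0.05, and 1 to 5 with a sample left out, against 1 to 3 in aff1-1. Between the alleles after IAA there were 3 with DESeq2, 2 with no filter, 4 with only the groups compared, 3 at an adjusted p below 0.05, and 1 with any sample left out. The interaction in aff1-1 gave 1 gene with DESeq2, 1 with limma and 1 (LTI30) at an adjusted p below 0.05, and 0 with any sample left out in either allele. The number of genes chosen was 218 at a mock limit of 0.6, 56 at 1.0, 165 with no bound on the IAA response and 86 to 126 with a mock sample left out. Without the second mock sample of both mutants, an alternative added after seeing the data, it was 131, of which 93 were among the 101.

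Replicate numbers did not pair the samples (correlation of deviations -0.28 to 0.26, median 0.01 over 45 pairs with the same number and -0.01 over 90 others). With the replicate block, 86 and 85 genes were called higher than Wt after IAA in aff1-1 and aff1-3, 3 and 5 were changed by IAA.

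For single genes, 1483 of 1616 alternative values of the differences from Wt after IAA kept direction and call, 99 lost the call, 28 gained it and 6 reversed. With 1 sample left out, AT1G32910 ranged from -0.48 to 0.50 in aff1-1 (-0.36 without the third and 0.50 without the second IAA-treated Wt sample, -0.48 without the second IAA-treated aff1-1 sample) and from -0.76 to 0.11 in aff1-3 (0.11 without the second IAA-treated Wt sample). In aff1-3, ATCG00190 ranged from -0.081 to 0.31 and ATCG00180 from -0.090 to 0.13, each lowest without the third IAA-treated aff1-3 sample, and ATCG00180 was at -0.0092 with limma. None of these was called, and the cause was not tested. Depth limits genes near 1 CPM most.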
